A study of Mus musculus with 9 samples.

Results

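The genes described are 45 immediate early and stress genes, whose RNA can rise within minutes when a cell is stimulated, injured or taken out of its tissue. They were chosen by name, and each is represented by the probe set that the platform annotation pairs with that gene alone and that had the highest mean over the 9 arrays. All 45 had such a probe set, of 18193 genes with one, and 43 were tested, among 11006 tested genes, because they exceeded the median of the array on 3 or more arrays. Fosl1 and Egr3 fell short of that filter and are given as values. The arrays measured RNA of mouse stomach cells of strain C57BL/6, 1 Affymetrix array per sample, in 3 groups of 3. The isthmus group was Mist1+ Tomato+ cells of the gastric corpus taken after ablation of cells expressing Lgr5, a stem cell marker of the Wnt pathway. The parietal group was acid-secreting parietal cells of the stomach. The chief group was Mist1+ Tomato+ corpus cells without that ablation. Mist1, encoded by Bhlha15, is a factor that builds the secretory machinery of enzyme-secreting cells, and Tomato is a red fluorescent reporter. The Mist1+ cells were sorted by flow cytometry. Not given in the sources used here are the way parietal cells were collected, the alleles that carried the reporter and the ablation, the age of the mice, and the time and temperature of any dissociation.

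Immediate early genes are switched on without new protein synthesis, by MAP kinases and by factors already bound at their promoters, such as SRF with its ETS partners and CREB. Many encode transcription factors, among them Fos and Jun, which pair to form AP-1, and the Egr, Klf and Nr4a proteins, while others encode phosphatases, RNA decay proteins and NF-kB inhibitors that end the signal. Heat shock chaperones, which refold damaged proteins, are switched on by another factor, HSF1. Enzymatic dissociation of tissue is known to induce both sets, so they are often used to read how cells were handled as well as their state.

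Promoter windows of 7 members are shown because these genes carry the patterns described after them. Fos, Fosb, Maff, Nr4a1 and Klf4 are early genes of transcription factors that were lower in parietal than in chief arrays, Dusp6 is the member that was higher, and Hsph1 is a chaperone. Each window runs from 250 bases before to 50 bases after an annotated start and is written 5′ to 3′ on the gene's strand, from RefSeq on the assembly GRCm38.p6. The windows are chr12:85473640-85473939 on the + strand for Fos, chr7:19309996-19310295 on the − strand for Fosb, chr15:79347270-79347569 on the + strand for Maff (1 of its 3 annotated windows), chr15:101266596-101266895 on the + strand for Nr4a1, chr4:55532426-55532725 on the − strand for Klf4, chr10:99262981-99263280 on the + strand for Dusp6 and chr5:149636287-149636586 on the − strand for Hsph1 (1 of 2 overlapping windows). In the first 6, capitals mark the letters TGACG (the core of a cAMP response element), GCGNGGGCG (a site of the Egr family), TGANTCA (the AP-1 site) or a CArG box (the SRF site) on either strand. In Hsph1, capitals mark GAANNTTC and TTCNNGAA, the paired cores of a heat shock element.
Fos: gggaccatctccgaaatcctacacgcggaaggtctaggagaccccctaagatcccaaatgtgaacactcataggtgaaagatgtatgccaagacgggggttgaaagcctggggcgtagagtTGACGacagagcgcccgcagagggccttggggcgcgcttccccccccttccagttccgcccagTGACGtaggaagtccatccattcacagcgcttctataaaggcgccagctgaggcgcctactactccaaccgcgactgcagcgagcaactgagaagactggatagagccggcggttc
Fosb: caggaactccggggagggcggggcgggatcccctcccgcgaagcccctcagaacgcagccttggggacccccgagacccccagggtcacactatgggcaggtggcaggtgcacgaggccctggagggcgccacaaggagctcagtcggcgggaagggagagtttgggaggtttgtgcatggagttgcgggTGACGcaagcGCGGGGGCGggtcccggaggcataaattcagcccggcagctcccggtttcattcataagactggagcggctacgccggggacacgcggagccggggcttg
Maff: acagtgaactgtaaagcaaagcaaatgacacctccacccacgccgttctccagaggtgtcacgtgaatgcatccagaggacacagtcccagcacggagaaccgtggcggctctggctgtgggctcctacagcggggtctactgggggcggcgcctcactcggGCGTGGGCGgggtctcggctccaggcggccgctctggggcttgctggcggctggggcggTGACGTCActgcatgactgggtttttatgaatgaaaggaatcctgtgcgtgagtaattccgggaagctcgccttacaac
Nr4a1: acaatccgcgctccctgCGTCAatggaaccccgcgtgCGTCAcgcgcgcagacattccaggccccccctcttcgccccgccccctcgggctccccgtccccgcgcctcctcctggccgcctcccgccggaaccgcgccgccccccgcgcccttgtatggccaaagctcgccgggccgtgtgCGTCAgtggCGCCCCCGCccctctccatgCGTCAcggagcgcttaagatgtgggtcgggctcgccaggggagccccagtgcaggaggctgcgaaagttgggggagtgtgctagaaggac
Klf4: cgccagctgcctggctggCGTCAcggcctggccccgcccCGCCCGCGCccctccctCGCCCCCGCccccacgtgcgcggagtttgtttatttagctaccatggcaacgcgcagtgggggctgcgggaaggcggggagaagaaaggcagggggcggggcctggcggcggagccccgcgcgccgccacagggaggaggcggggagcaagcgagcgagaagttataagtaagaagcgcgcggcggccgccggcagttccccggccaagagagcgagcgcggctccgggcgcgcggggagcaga
Dusp6: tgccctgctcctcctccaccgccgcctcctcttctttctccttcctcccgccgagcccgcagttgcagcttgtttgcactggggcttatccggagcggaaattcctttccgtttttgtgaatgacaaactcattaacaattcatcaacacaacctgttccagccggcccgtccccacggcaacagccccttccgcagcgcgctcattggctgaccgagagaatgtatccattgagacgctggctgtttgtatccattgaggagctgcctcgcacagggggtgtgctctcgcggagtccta
Hsph1: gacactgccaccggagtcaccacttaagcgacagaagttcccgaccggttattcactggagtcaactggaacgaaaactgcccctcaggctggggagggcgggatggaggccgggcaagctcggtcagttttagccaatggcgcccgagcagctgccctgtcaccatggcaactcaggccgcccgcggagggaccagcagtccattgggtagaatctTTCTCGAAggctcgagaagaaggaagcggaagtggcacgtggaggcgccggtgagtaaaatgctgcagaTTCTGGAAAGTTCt

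RefSeq windows were matched for 37 of the 45 members. Those not matched were Fosl1, Egr1, Egr3, Klf10, Ier2, Nfkbiz, Hspa8 and Hsp90aa1. TGACG, on either strand, was found for 20 of the 37 members (54.1%), against 23.0% of the 27025 genes with a window. The full palindrome TGACGTCA, which contains TGACG, was found in Maff, Dusp1 and Btg2, or 8.11% of members against 2.03% of genes. GCGNGGGCG was found for 13 members (35.1%), against 6.27% of genes, and a CArG box for 3 members (8.11%), against 1.81%. TGANTCA was found for 2 members (5.41%), against 8.97% of genes. GAANNTTC was found for 7 members, 5 of them among the 6 chaperones with a window, against 9.04% of genes. TTCNNGAA, the other order of the same core, was found for 3 members (8.11%), 1 of them a chaperone, against 9.60% of genes. The median GC content was 62.3% in the members' windows and 52.8% over all genes, and the part of base composition in these shares was not tested. The Fos window held TGACG at 2 places and the Nr4a1 window at 4, Klf4 held GCGNGGGCG at 2 places, and none of the letters searched in the first 6 windows was found in the Dusp6 window. Of the 3 Maff windows, the one shown had the most marked letters, 17, against 0 and 5 in the others. A match of letters describes the sequence only, and sites outside these windows were not searched.

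Values below are log2 signals as deposited, and differences are in log2 units. A gene was called where limma's adjusted p was under 0.05 over the 11006 genes of a comparison. Fewer cells of a type and less RNA per cell cannot be told apart in these bulk samples, and nothing in the labels says that the 3 samples of a group came from separate mice, so p-values cover the spread among the arrays of a group, part of which may be technical.

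Before the genes, the arrays were set against their labels. Lgr5 had log2 signals of 2.93, 4.83 and 5.97 on the isthmus arrays, 4.62, 6.26 and 4.0 on the parietal arrays and 8.05, 7.54 and 9.36 on the chief arrays. Bhlha15, which encodes Mist1, had 5.03, 1.34 and 7.36 on the isthmus arrays, 6.82, 4.21 and 0 on the parietal arrays and 10.75, 10.05 and 9.2 on the chief arrays, so the isthmus arrays labelled Mist1+ lay below every chief array (at least 11.3-fold, adjusted p = 0.123). Isthmus and parietal arrays overlapped for Bhlha15, and it was not called between them. The summed linear signal of 6 parietal cell markers was 16301 to 27243 in isthmus, 58818 to 70206 in parietal and 19736 to 31366 in chief arrays. The same sum over 6 chief cell markers was 18187 to 23237 in isthmus, 9125 to 13333 in parietal and 52408 to 70844 in chief arrays, with Bhlha15 at 0 on a parietal array, and the neck cell marker Tff2 had signals of 10226 to 11829 in isthmus, 2721 to 5874 in parietal and 11347 to 20032 in chief arrays. Markers of endocrine cells (6 genes) summed to 18776 to 42453 in isthmus, 429 to 657 in parietal and 40687 to 78532 in chief arrays, with none at 0, and markers of pit cells (4 genes) to 57498 to 67831, 39495 to 46900 and 88622 to 107880 in the same order of groups. Fibroblast markers (6 genes) summed to 54.7 to 121 in isthmus, 78.4 to 250 in parietal and 159 to 18882 in chief arrays, the highest on chief array 3, with Lum at 0 on an isthmus array and Pdgfra on a parietal array. Markers of red blood cells (4 genes) summed to 3199 to 3431 in isthmus, 2570 to 2884 in parietal and 3917 to 24401 in chief arrays, also highest on chief array 3, with Hbb-b2 at 0 on an isthmus array. Smooth muscle markers (4 genes) stayed at or under 421. Endothelial markers (5 genes) stayed at or under 239 and leukocyte markers (7 genes) at or under 795 on every array, with Tek, Ptprc, Cd14 and Adgre1 at 0 on some arrays. Xist, made from an inactive X chromosome, was high on parietal array 1 (13.13) and chief array 3 (11.72) and between 4.46 and 5.93 on the other 7 arrays, while the Y-linked Eif2s3y was at 2.84 on parietal array 1 and between 10.63 and 11.59 on the other 8. Results are therefore also given without both arrays. The part of these other cells in the differences below was not tested.

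In parietal arrays 6 of 8 tested AP-1 genes and 5 of 8 other tested transcription factors were called lower than in chief arrays. The share over all tested genes was 13.5%. Between isthmus and chief arrays 1 member was called lower, where 1.26% of all tested genes were. The map shows all members. The parietal mean was the lowest of the 3 for 26 of the 43 members tested (60.5%), against 42.9% of all tested genes, and the highest for 6 (14.0%, against 35.5%). The chief mean was the highest for 19 members (44.2%, against 29.5%) and the isthmus mean for 18 (41.9%, against 35%). The median SD over members within a group was 0.42 in isthmus, 0.42 in parietal and 0.36 in chief arrays, against 0.47, 0.42 and 0.53 over all tested genes.

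**Figure D1:**
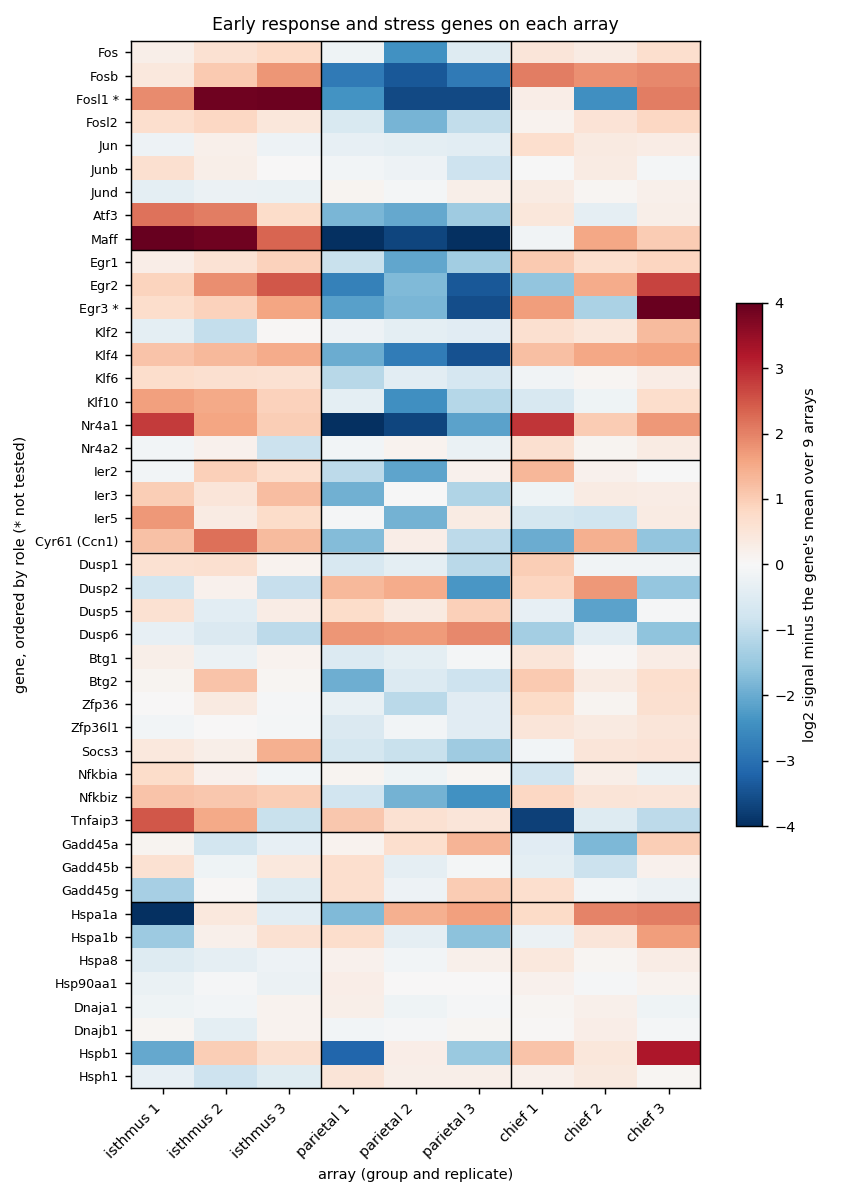
Map of the members (rows, ordered by role) on the 9 arrays (columns: 3 isthmus, 3 parietal, 3 chief). Colour gives the log2 signal minus the gene's mean over the 9 arrays, with the scale ending at 4 in either direction, and the AP-1 and transcription factor rows are mostly below their mean on the 3 parietal arrays and above it elsewhere, whereas Dusp6 is above it on the parietal arrays.

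Parietal against chief arrays asks how the early genes differ between the acid-secreting cells and the unablated Mist1+ cells. Of the members, 16 of 43 members were called lower in parietal arrays, where 13.5% of all tested genes were, and 1 member, Dusp6, was called higher, where 10.7% of all genes were. The median difference over the members was -0.82, against -0.10 over all tested genes. The parietal and chief arrays did not overlap for 21 members that were lower and 3 that were higher, where 21.2% and 18.7% of all genes did so. Array medians differed between the groups, at 5.80 to 5.86 in parietal and 6.38 to 6.70 in chief arrays, so the count depends on the scale: with each array centred on its median, the median difference over all genes moved by 0.69, and 10 members were called higher and 7 lower, against 28.2% and 7.33% of all genes. Without both arrays of high Xist, 1 was called higher and 11 lower, against 5.84% and 8.70% of all genes.

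Isthmus against parietal arrays sets the cells labelled Mist1+ and taken after ablation beside the acid-secreting cells, and shares the parietal arrays with the comparison above. Of 43 members, 17 were called higher in isthmus arrays, where 15.4% of all tested genes were, and 4 were called lower (Jund, Dusp6, Hspa8 and Hsph1), where 12.2% were. The median difference was 0.67 over the members and 0.09 over all genes. Groups did not overlap for 22 members that were higher and 6 that were lower, where 24.0% and 20.3% of all genes did so. Centring the arrays on their medians moved the median over all genes by -0.32 and gave 14 members higher and 5 lower, against 10.7% and 17.3% of all genes. Without both arrays of high Xist, 14 were higher and 2 lower, against 13.0% and 9.09%.

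Isthmus against chief arrays asks how Mist1+ cells taken after the ablation of Lgr5+ cells differ from those taken without it. By limma 0 of 43 members were called higher in isthmus arrays, where 0.391% of all tested genes were, and 1 was called lower, Hspa8, where 1.26% were. At an unadjusted p under 0.05, 7 members were higher and 7 lower, where 8.28% and 9.11% of all genes were. The median difference was -0.08 over the members and 0.03 over all genes, and the groups did not overlap for 6 members that were higher and 8 that were lower, where 10.6% and 10.5% of all genes did so. With arrays centred on their medians, 1 member was called higher (Klf6) and 0 lower, against 2.09% and 0.418% of all genes, and the median over all genes moved by 0.38. Without both arrays of high Xist, 0 were called higher and 0 lower, against 0.0636% and 0.391% of all genes.

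**Figure D2:**
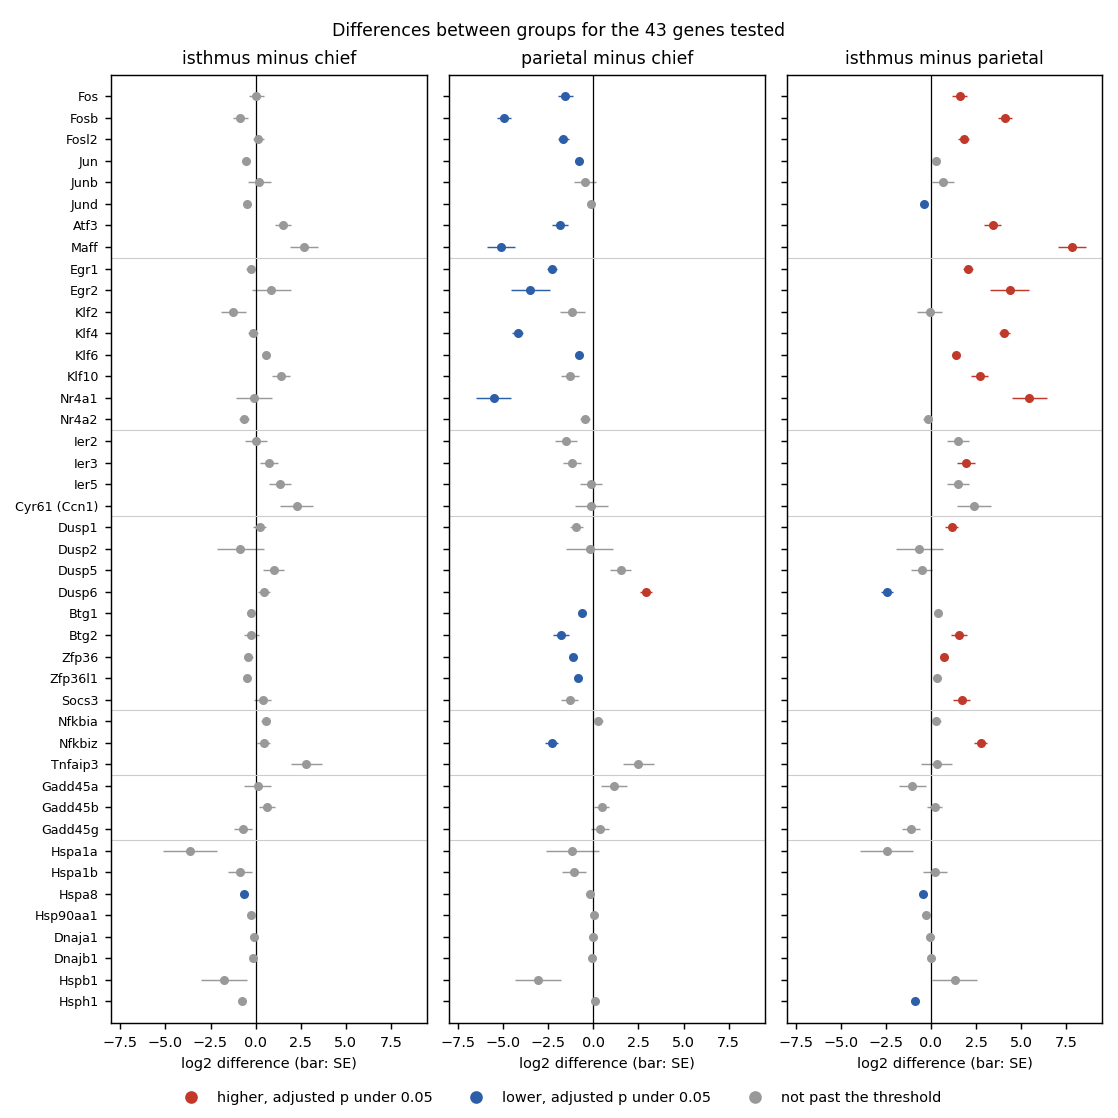
Differences of each member in the 3 comparisons, in log2 units, with bars for the SE and red (higher) or blue (lower) points where limma's adjusted p was under 0.05. In parietal minus chief the called points lie to the left of 0 apart from Dusp6 (2.93), in isthmus minus parietal 17 lie to the right, and in isthmus minus chief 1 point is called, Hspa8 (-0.62).

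Among the AP-1 genes, 6 of the 8 tested were called lower in parietal than in chief arrays (13.5% of all genes). They were Fos, Fosb, Fosl2, Jun, Atf3 and Maff. In isthmus against parietal arrays 5 were called higher and 1 lower (15.4% and 12.2% of all genes). With arrays centred on their medians, Fosb, Fosl2 and Maff stayed lower in parietal than in chief arrays and Jund was called higher. The isthmus against parietal calls stayed. The median difference of the 8 was -1.60 in parietal minus chief and 1.70 in isthmus minus parietal, against -0.10 and 0.09 over all genes. Fosb, a Fos family protein that pairs with Jun proteins, gave log2 signals of 9.88, 10.49 and 11.20 on the isthmus arrays, 6.63, 6.05 and 6.61 on the parietal arrays and 11.50, 11.27 and 11.36 on the chief arrays. The parietal arrays lay below all others. Fosb fell by 4.95 on the log2 scale in parietal against chief arrays, 30.8-fold (adjusted p = 6.48e-06), and was 17.1-fold higher in isthmus than in parietal arrays (4.09, adjusted p = 2.29e-05). Isthmus arrays were below every chief array for Fosb, but that difference of -0.85 was not called (adjusted p = 0.305).

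Fos itself, the founding member of the family, had 12.26, 12.62 and 12.80 in isthmus, 11.83, 9.60 and 11.49 in parietal and 12.50, 12.36 and 12.69 in chief arrays. Every parietal array was below every other array, by the widest margin on parietal array 2. Fos fell by 1.54 in parietal against chief arrays (2.91-fold, adjusted p = 0.0197), and the isthmus arrays were 3.00-fold above the parietal arrays (1.59, adjusted p = 0.0149). The call against chief arrays was lost with arrays centred on their medians and without chief array 3. Isthmus and chief arrays overlapped for Fos, with a difference of 0.04 (adjusted p = 0.976).

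Fosl2, a Fos family protein without the strong activation domain of Fos, had 12.64, 12.78 and 12.43 in isthmus, 11.36, 10.09 and 10.98 in parietal and 12.10, 12.52 and 12.78 in chief arrays. Here too the parietal arrays stood below the rest, and isthmus and chief arrays overlapped. It fell by 1.66 in parietal against chief arrays (3.15-fold, adjusted p = 0.00118) and was 3.50-fold higher in isthmus than in parietal arrays (1.81, adjusted p = 0.000559). Fosl1, the remaining Fos family gene, was above the array median on 2 arrays and was not tested. Its values were 5.49, 7.50 and 7.53 in isthmus, 1.21, 0 and 0 in parietal and 3.86, 1.15 and 5.63 in chief arrays. The isthmus values lay above the parietal values, which were all below their array medians, and overlapped the chief values.

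Of the Jun genes, Jun, the main partner of Fos, had 12.04, 12.47 and 12.04 in isthmus, 11.93, 11.87 and 11.85 in parietal and 12.94, 12.61 and 12.56 in chief arrays, and the chief arrays were above all others. Jun fell by 0.82 in parietal against chief arrays (1.77-fold, adjusted p = 0.00406), a call lost with arrays centred on their medians, and isthmus and parietal arrays differed by 0.30 (adjusted p = 0.220). Jund, which many resting cells express, had 12.94, 13.10 and 13.07 in isthmus, 13.42, 13.26 and 13.56 in parietal and 13.64, 13.40 and 13.53 in chief arrays. The isthmus arrays were the lowest, and Jund fell by 0.38 in isthmus against parietal arrays (1.30-fold, adjusted p = 0.0259). The isthmus minus chief difference of Jund, -0.49, was not called (adjusted p = 0.0536), but was called in 4 of 21 alternatives. Parietal and chief arrays differed by -0.11 for Jund (adjusted p = 0.526), a difference that became 0.58 with arrays centred on their medians. Junb, a weaker activator than Jun, was between 6.13 and 7.59 on the 9 arrays and was called in 0 of the 3 comparisons.

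In Atf3 and Maff every isthmus array was above every array of the other groups. Atf3, a stress-induced repressor, had 11.64, 11.51 and 10.22 in isthmus, 7.65, 7.44 and 8.05 in parietal and 9.93, 9.11 and 9.71 in chief arrays, and no pair of groups overlapped. Atf3 fell by 1.87 in parietal against chief arrays (3.66-fold, adjusted p = 0.00876) and was 10.6-fold higher in isthmus than in parietal arrays (3.41, adjusted p = 0.000147). The isthmus minus chief difference of 1.54 was not called (adjusted p = 0.106). Parietal against chief arrays was not called for Atf3 without both arrays of high Xist or with arrays centred on their medians, and isthmus against chief arrays was called without isthmus array 3.

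Maff, a small Maf protein that binds DNA but lacks an activation domain, had 11.37, 10.94 and 9.39 in isthmus, 2.94, 3.40 and 1.89 in parietal and 6.91, 8.61 and 8.06 in chief arrays. The 3 groups did not overlap, and all 3 parietal values were below their array medians, so folds against them are lower bounds. Maff was at least 4.07-fold lower in parietal than in chief arrays (-5.12, adjusted p = 0.000498) and at least 26.5-fold higher in isthmus than in parietal arrays (7.82, adjusted p = 2.29e-05). Between isthmus and chief arrays the difference was 2.71 (adjusted p = 0.104), and it was called with a pseudocount of 16 or 64 added to the linear signal and with values floored at the array median, the lowest adjusted p over 20 alternatives being 0.0279.

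**Figure D3:**
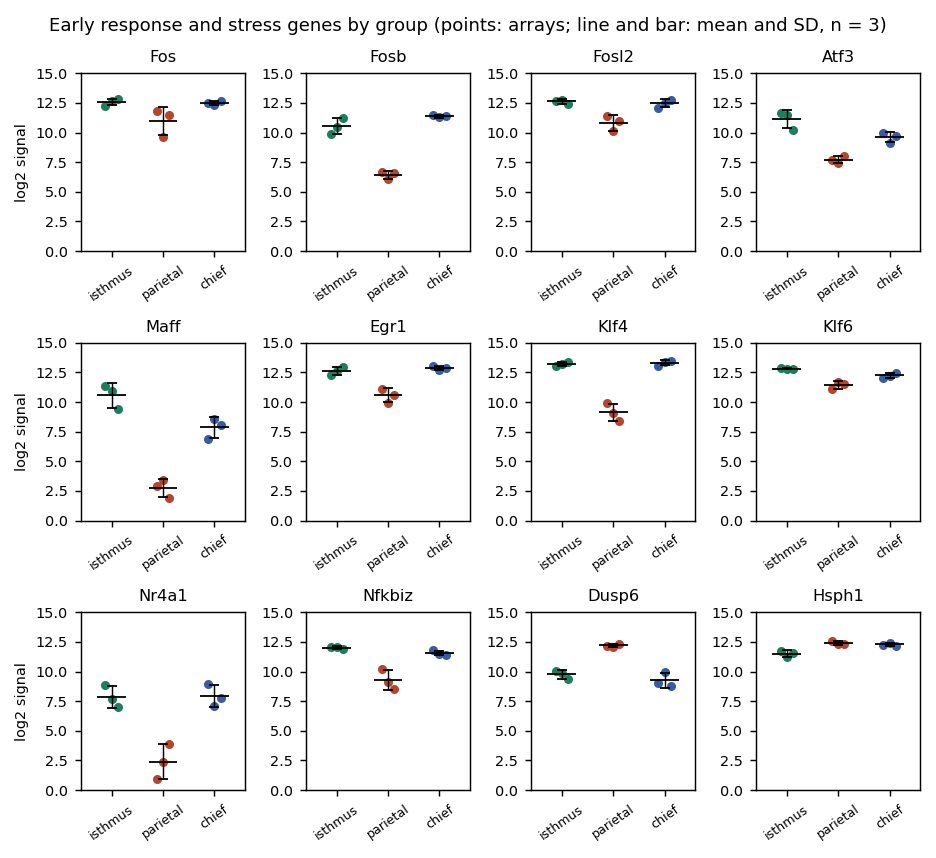
Log2 signal of selected members on each array (points), with the mean and SD of each group (line and bar, n = 3), in isthmus, parietal and chief arrays. The parietal points of Fosb, Maff, Klf4 and Nr4a1 lie below all others, and those of Dusp6 lie above all others.

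Of the zinc finger and nuclear receptor factors, 5 of the 8 tested were called lower in parietal than in chief arrays (13.5% of all genes). They were Egr1, Egr2, Klf4, Klf6 and Nr4a1. These 5 and Klf10, so 6, were called higher in isthmus than in parietal arrays (15.4% of all genes). With arrays centred on their medians, Egr1, Klf4 and Nr4a1 stayed lower in parietal than in chief arrays. The isthmus against parietal calls stayed. The median difference of the 8 was -1.79 in parietal minus chief and 2.37 in isthmus minus parietal. Over all genes it was -0.10 and 0.09. Klf4, a factor of differentiated epithelium, had 13.00, 13.17 and 13.35 in isthmus, 9.89, 9.08 and 8.39 in parietal and 13.06, 13.41 and 13.49 in chief arrays. Isthmus and chief arrays overlapped, and every parietal array was below both. Klf4 fell by 4.20 in parietal against chief arrays (18.4-fold, adjusted p = 2.22e-06) and was 16.6-fold higher in isthmus than in parietal arrays (4.05, adjusted p = 3.77e-06). Its isthmus minus chief difference was -0.15 (adjusted p = 0.848).

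Egr1, an early zinc finger activator induced by growth factors, had 12.29, 12.60 and 12.93 in isthmus, 11.12, 9.94 and 10.63 in parietal and 13.05, 12.67 and 12.86 in chief arrays. The parietal arrays were again below the rest. It fell by 2.30 in parietal against chief arrays (4.91-fold, adjusted p = 7.63e-05) and was 4.12-fold higher in isthmus than in parietal arrays (2.04, adjusted p = 0.000157). Egr2, a relative of Egr1, had 7.0, 7.99 and 8.6 in isthmus, 3.43, 4.36 and 2.73 in parietal and 4.56, 7.62 and 8.82 in chief arrays. Chief array 1 lay close to the parietal arrays for Egr2. Egr2 was at least 2.24-fold lower in parietal than in chief arrays (-3.49, adjusted p = 0.0335), a call that held in 9 of 20 alternatives, and at least 4.07-fold higher in isthmus than in parietal arrays (4.36, adjusted p = 0.00973). Egr3 was not tested, and had 4.49, 4.69 and 5.35 in isthmus, 1.60, 1.95 and 0.22 in parietal and 5.45, 2.5 and 7.74 in chief arrays. Of these values only that of chief array 3 was above its array median.

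Nr4a1, an orphan nuclear receptor induced early in many cells, had 8.87, 7.65 and 7.04 in isthmus, 0.92, 2.38 and 3.92 in parietal and 8.91, 7.08 and 7.80 in chief arrays. The parietal values were below their array medians and below all others, while isthmus and chief arrays overlapped. Nr4a1 was at least 4.27-fold lower in parietal than in chief arrays (-5.52, adjusted p = 0.00145) and at least 4.05-fold higher in isthmus than in parietal arrays (5.45, adjusted p = 0.00133). Its relative Nr4a2 had 11.44, 11.74 and 10.69 in isthmus, 11.45, 11.69 and 11.29 in parietal and 12.21, 11.67 and 11.89 in chief arrays. Nr4a2 was called in 0 of the 3 comparisons.

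Klf6, another zinc finger factor induced by injury, had 12.87, 12.81 and 12.77 in isthmus, 11.07, 11.73 and 11.51 in parietal and 12.04, 12.23 and 12.47 in chief arrays, with no overlap between any groups. It fell by 0.81 in parietal against chief arrays (1.75-fold, adjusted p = 0.00825), a call lost with arrays centred on their medians and without both arrays of high Xist, and was 2.6-fold higher in isthmus than in parietal arrays (1.38, adjusted p = 0.000212). Of the other 4 probe sets of Klf6, 3 were also lower in parietal than in chief arrays and 1 had equal means. Klf10, induced by TGF-beta, had 12.07, 11.97 and 11.38 in isthmus, 10.06, 8.0 and 9.29 in parietal and 9.80, 10.26 and 11.16 in chief arrays. Klf10 was 6.45-fold higher in isthmus than in parietal arrays (2.69, adjusted p = 0.00137), and its difference against chief arrays was 1.40 for isthmus (adjusted p = 0.168) and -1.29 for parietal arrays (adjusted p = 0.0727). Klf2, known from endothelium and lymphocytes, had 6.15, 5.56 and 6.56 in isthmus, 6.32, 6.12 and 6.06 in parietal and 7.18, 6.98 and 7.80 in chief arrays and was called in 0 of the 3 comparisons.

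The other early proteins gave 1 call, higher in isthmus than in parietal arrays, where 15.4% of all genes were. Ier3, which protects cells from apoptosis, had 10.11, 9.61 and 10.36 in isthmus, 7.22, 9.12 and 7.92 in parietal and 8.96, 9.45 and 9.43 in chief arrays. The isthmus arrays were above both other groups, and Ier3 was 3.84-fold higher in isthmus than in parietal arrays (1.94, adjusted p = 0.0110), a call lost without both arrays of high Xist. Cyr61, a secreted matrix protein whose current symbol is Ccn1, had 8.20, 9.25 and 8.31 in isthmus, 5.31, 7.29 and 6.00 in parietal and 5.05, 8.45 and 5.46 in chief arrays, and its isthmus minus parietal difference of 2.39 had an adjusted p of 0.0723. That difference was called in 6 of 20 alternatives, and was 4.64, 3.76 and 5.63 on the other probe sets of Cyr61. The parietal minus chief difference was -0.12 on the chosen probe set and -3.31, -0.88 and -3.85 on the others. On those others all parietal values were below their array medians. Ier2 lay between 6.73 and 10.18 and Ier5 between 7.22 and 10.84, and each was called in 0 comparisons. In parietal against chief arrays 0 of the 4 genes were called by limma. At an unadjusted p under 0.05, 0 were higher and 2 lower (16.2% and 20.0% of all genes).

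Among the genes that end the signal, 4 of 9 were called lower in parietal than in chief arrays (Btg1, Btg2, Zfp36 and Zfp36l1). The median difference was -0.82, against -0.10 over all genes. Called higher was 1 gene, where 10.7% of all genes were higher and 13.5% lower. That gene was Dusp6, a phosphatase that switches off ERK and is itself induced by ERK signalling. Dusp6 had 10.07, 9.84 and 9.35 in isthmus, 12.19, 12.11 and 12.32 in parietal and 9.06, 9.98 and 8.79 in chief arrays. The parietal arrays lay above all others by over 2 units, and isthmus and chief arrays overlapped. Dusp6 was 7.62-fold higher in parietal than in chief arrays (2.93, adjusted p = 7.46e-05) and 5.48-fold lower in isthmus than in parietal arrays (-2.45, adjusted p = 0.000231).

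The other 3 phosphatases gave 1 call. Dusp1, which acts on p38 and JNK, had 10.89, 10.93 and 10.44 in isthmus, 9.66, 9.90 and 9.22 in parietal and 11.29, 10.14 and 10.15 in chief arrays. It was 2.23-fold higher in isthmus than in parietal arrays (1.16, adjusted p = 0.0307). That call held in 14 of 21 alternatives and was lost with arrays centred on their medians and without both arrays of high Xist. Dusp5, a nuclear ERK phosphatase, had 9.15, 8.10 and 8.82 in isthmus, 9.26, 8.90 and 9.47 in parietal and 8.21, 6.38 and 8.47 in chief arrays, and its parietal minus chief difference of 1.52 was not called (adjusted p = 0.0775). Dusp2 lay between 2.72 and 6.77 and was called in 0 comparisons.

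Btg2, an anti-proliferative protein, had 10.18, 11.22 and 10.17 in isthmus, 8.12, 9.53 and 9.26 in parietal and 11.12, 10.41 and 10.76 in chief arrays. The parietal arrays were below both other groups, and Btg2 fell by 1.79 against chief arrays (3.47-fold, adjusted p = 0.00909) and was 2.93-fold higher in isthmus than in parietal arrays (1.55, adjusted p = 0.0170). Both calls were lost without both arrays of high Xist and with arrays centred on their medians. Btg1, its relative, had 12.44, 11.96 and 12.34 in isthmus, 11.66, 11.82 and 12.12 in parietal and 12.68, 12.26 and 12.51 in chief arrays. Btg1 fell by 0.62 in parietal against chief arrays (adjusted p = 0.0321), but the difference turned to 0.08 with arrays centred on their medians.

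Zfp36, which binds AU-rich sequences and speeds the decay of early RNAs, had 12.25, 12.59 and 12.20 in isthmus, 11.93, 11.15 and 11.79 in parietal and 13.02, 12.36 and 12.87 in chief arrays. It fell by 1.13 in parietal against chief arrays (2.18-fold, adjusted p = 0.00369) and was higher in isthmus than in parietal arrays by 0.72 (adjusted p = 0.0338). For Zfp36 that last difference was not called with arrays centred on their medians. Its relative Zfp36l1 had 12.37, 12.47 and 12.38 in isthmus, 11.88, 12.36 and 12.01 in parietal and 12.94, 12.83 and 12.95 in chief arrays, and fell by 0.82 in parietal against chief arrays (1.77-fold, adjusted p = 0.00178). The chief arrays were the highest for Zfp36l1 with no overlap. All 4 calls lower in parietal arrays among these genes were lost with arrays centred on their medians, when 2 of the 9 were higher and 0 lower (28.2% and 7.33% of all genes). Socs3, which inhibits cytokine receptors, had 9.33, 9.12 and 10.31 in isthmus, 8.19, 8.01 and 7.48 in parietal and 8.79, 9.38 and 9.44 in chief arrays. Socs3 was 3.23-fold higher in isthmus than in parietal arrays (1.69, adjusted p = 0.0153), and its parietal minus chief difference of -1.31 was not called (adjusted p = 0.0549). That last difference was called in 2 of 21 alternatives, the mean of all probe sets and the filter on all 9 arrays. On the other probe sets of Socs3 it was -1.74 and -3.85.

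The 3 regulators of NF-kB differed from each other. Nfkbiz, a nuclear regulator of NF-kB, had 12.11, 12.04 and 11.93 in isthmus, 10.19, 9.08 and 8.55 in parietal and 11.80, 11.49 and 11.44 in chief arrays, with no overlap. It fell by 2.30 in parietal against chief arrays (4.94-fold, adjusted p = 0.000505) and was 6.74-fold higher in isthmus than in parietal arrays (2.75, adjusted p = 0.000121). Nfkbia, the inhibitor that holds NF-kB in the cytoplasm, had 12.91, 12.33 and 12.06 in isthmus, 12.28, 11.98 and 12.24 in parietal and 11.38, 12.39 and 11.88 in chief arrays, and was called in 0 comparisons. Tnfaip3, which removes ubiquitin from NF-kB activators, had 11.96, 11.00 and 8.58 in isthmus, 10.54, 10.08 and 9.96 in parietal and 5.74, 8.95 and 8.42 in chief arrays. All parietal arrays lay above all chief arrays for Tnfaip3, and isthmus array 3 lay among the chief arrays. The differences against chief arrays were 2.81 for isthmus (adjusted p = 0.121) and 2.49 for parietal arrays (adjusted p = 0.0517). The isthmus difference was called without isthmus array 3, which had the lowest of the isthmus values, and the parietal difference was called in 9 of 20 alternatives.

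The Gadd45 genes, which arrest growth after DNA damage and stress, were called in 0 of the 3 comparisons. In parietal against chief arrays 0 of 3 passed an unadjusted p under 0.05, where 16.2% of all genes were higher and 20.0% lower. Gadd45b had 9.88, 9.08 and 9.68 in isthmus, 9.95, 8.90 and 9.2 in parietal and 8.87, 8.39 and 9.42 in chief arrays. Its parietal minus chief difference was 0.46 on that probe set and 0.73 and 2.32 on its others. This difference was called in 0 of 21 alternatives, among them the mean of all probe sets. Gadd45a lay between 5.70 and 8.87 and Gadd45g had 7.66, 9.01 and 8.45 in isthmus, 9.65, 8.77 and 10 in parietal and 9.66, 8.86 and 8.73 in chief arrays.

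Among the heat shock chaperones the median difference was -0.14 in parietal minus chief, -0.17 in isthmus minus parietal and -0.69 in isthmus minus chief. Over all genes it was -0.10, 0.09 and 0.03. In isthmus against chief arrays 1 of 8 was called lower and 0 higher (1.26% and 0.391% of all genes). All 8 differences there were negative, but those of Hsp90aa1, Dnaja1 and Dnajb1 changed sign under some alternatives. By limma 0 of 8 were called in parietal against chief arrays. At an unadjusted p under 0.05, 0 were higher and 1 lower (16.2% and 20.0% of all genes). In isthmus against parietal arrays 2 were called lower (12.2% of all genes). With arrays centred on their medians 5 of the 8 were called higher in parietal than in chief arrays, where 28.2% of all genes were. Hspa8, the constitutive member of the Hsp70 family, had 13.33, 13.49 and 13.66 in isthmus, 14.01, 13.74 and 14.05 in parietal and 14.27, 13.94 and 14.14 in chief arrays. The isthmus arrays were below all others, and Hspa8 fell by 0.62 in isthmus against chief arrays (1.54-fold, adjusted p = 0.0272) and by 0.44 in isthmus against parietal arrays (adjusted p = 0.0154). The call against chief arrays held in 12 of 21 alternatives, with an adjusted p of up to 0.289.

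Hsph1, which helps Hsp70 exchange its nucleotide, had 11.74, 11.24 and 11.59 in isthmus, 12.59, 12.31 and 12.30 in parietal and 12.26, 12.45 and 12.15 in chief arrays. It fell by 0.88 in isthmus against parietal arrays (1.84-fold, adjusted p = 0.00327), and the isthmus minus chief difference of -0.76 was not called (adjusted p = 0.0555). Hspa1a and Hspa1b, the inducible Hsp70 genes most used to read heat stress, are near-identical copies whose probe sets may cross-hybridise, so their values are uncertain. Hspa1b had 8.39, 10.05 and 10.43 in isthmus, 10.55, 9.48 and 8.21 in parietal and 9.60, 10.31 and 11.50 in chief arrays, and Hspa1a had 0.29, 6.77 and 5.94 in isthmus, 4.60, 7.78 and 8.0 in parietal and 7.12, 8.34 and 8.41 in chief arrays. The groups overlapped for Hspa1b, and neither gene was called in any of the 3 comparisons.

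Of the remaining chaperones, Hsp90aa1, the inducible Hsp90, lay between 12.66 and 13.21 on the 9 arrays, Dnaja1 between 12.53 and 12.94 and Dnajb1 between 12.27 and 12.92, the last 2 being partners that hand clients to Hsp70. Each was called in 0 comparisons, and the parietal minus chief differences of Dnaja1 and Dnajb1 changed sign with arrays centred on their medians. Hspb1, a small heat shock protein, lay between 2.18 and 8.59 and was above the array median on 3 arrays, with parietal minus chief at adjusted p = 0.0975.

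Other probe sets of the called members were compared with the chosen ones. They pointed the same way in 13 of 14 cases in parietal against chief arrays, the remaining Klf6 probe set having equal means, in 17 of 17 in isthmus against parietal arrays and in 3 of 3 in isthmus against chief arrays. Calls that held in every alternative tested were 8 of 17 in parietal against chief arrays (Fosb, Fosl2, Maff, Egr1, Klf4, Nr4a1, Dusp6 and Nfkbiz) and 13 of 21 in isthmus against parietal arrays (these 8 and Atf3, Egr2, Klf6, Klf10 and Hsph1). In parietal against chief arrays, leaving out a single array ended the call of Fos (chief 3), of Egr2 (parietal 1 or 3, chief 2 or 3) and of Btg1 (parietal 1 or 2, chief 1 or 3), with an adjusted p of up to 0.118 for Fos and 0.214 for Egr2 over all alternatives and 0.833 for Btg1. In isthmus against parietal arrays it ended the call of Fos (isthmus 3), Socs3 (isthmus 3 or parietal 3), Btg2 (isthmus 2 or parietal 1), Jund and Hspa8 (isthmus 1, parietal 1 or 3), Dusp1 (isthmus 1 or 2, parietal 1 or 3) and Zfp36 (any isthmus array or parietal 2), where the highest adjusted p over all alternatives was 0.0723 for Fos, 0.0771 for Socs3, 0.0791 for Btg2 and 0.590 for Jund. The call of Hspa8 in isthmus against chief arrays ended without isthmus 1 or 2 or without chief 1 or 3. Leaving out 1 parietal array gave a call to Klf10 (parietal 1), Ier3 (parietal 2) and Ier2 (parietal 3) against chief arrays.

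The list of other early response genes holds 38 genes, 30 of them tested. In parietal against chief arrays 6 were called higher and 5 lower (10.7% and 13.5% of all genes), and in isthmus against parietal arrays 9 higher and 6 lower (15.4% and 12.2%). In isthmus against chief arrays 0 were called by limma. At an unadjusted p under 0.05, 6 were higher there and 0 lower (8.28% and 9.11% of all genes). The list's median difference was -0.30 in parietal minus chief and 0.62 in isthmus minus parietal, against -0.10 and 0.09 over all genes. Dusp4, a nuclear phosphatase of ERK and JNK, had 8.28, 9.96 and 9.28 in isthmus, 10.41, 10.89 and 11.57 in parietal and 7.65, 6.79 and 7.29 in chief arrays. Like Dusp6 it was highest in parietal arrays, 13.1-fold over chief arrays (3.71, adjusted p = 0.000231), and 3.44-fold lower in isthmus than in parietal arrays (-1.78, adjusted p = 0.0192), the last call ending without isthmus array 1 or parietal array 2 or 3. Id2, a repressor of basic helix-loop-helix factors, had 11.37, 11.04 and 10.87 in isthmus, 12.95, 12.76 and 12.87 in parietal and 10.07, 10.61 and 10.81 in chief arrays, and was 5.15-fold higher in parietal than in chief arrays (2.36, adjusted p = 2.29e-05).

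Irf1, an interferon-induced factor, had 10.82, 11.05 and 10.55 in isthmus, 7.79, 6.34 and 7.43 in parietal and 9.25, 9.04 and 9.19 in chief arrays. No groups overlapped, and Irf1 fell by 1.97 in parietal against chief arrays (3.93-fold, adjusted p = 0.00640) and was 12.3-fold higher in isthmus than in parietal arrays (3.62, adjusted p = 9.49e-05). Klf5, a factor of proliferating epithelium, had 11.84, 11.37 and 12.36 in isthmus, 10.27, 10.19 and 10.33 in parietal and 11.78, 11.64 and 12.34 in chief arrays, and fell by 1.66 in parietal against chief arrays (3.15-fold, adjusted p = 0.000861). Rgs2, which shortens G protein signals, had 11.15, 10.12 and 8.97 in isthmus, 5.24, 5.55 and 5.34 in parietal and 7.11, 6.74 and 10.78 in chief arrays. Rgs2 was at least 18.9-fold higher in isthmus than in parietal arrays (4.70, adjusted p = 0.00255), and its call lower in parietal than in chief arrays held in 3 of 20 alternatives, chief array 3 being its highest chief value.

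Of the MAP kinases and promoter factors that switch early genes on, 21 were tested. By limma 0 were called in parietal against chief and 0 in isthmus against chief arrays. At an unadjusted p under 0.05, 1 was higher and 1 lower in parietal against chief arrays (16.2% and 20.0% of all genes). At that level, isthmus against chief arrays had 0 higher and 1 lower (8.28% and 9.11%). In isthmus against parietal arrays 1 was called lower, where 12.2% of all genes were. It was Mapk9, which encodes a JNK, with 9.0, 9.54 and 10.53 in isthmus, 10.82, 11.37 and 10.99 in parietal and 10.95, 10.66 and 10.90 in chief arrays (-1.37, adjusted p = 0.0135). That call ended without isthmus array 1 or parietal array 2. The list's median was 0.02 in parietal minus chief and -0.07 in isthmus minus parietal.

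Among 32 tested genes of the wider chaperone list, 4 were called higher and 4 lower in parietal than in chief arrays (10.7% and 13.5% of all genes), and 3 higher and 3 lower in isthmus than in parietal arrays (15.4% and 12.2% of all genes). Read against those shares, the parietal against chief counts are near the background. In isthmus against chief arrays 1 was called higher and 2 lower (0.391% and 1.26% of all genes). The higher gene was Dnaja2 (0.65, adjusted p = 0.0454). The lower genes were Hsp90b1 (-0.63) and Cryab (at least 17.9-fold), both just under an adjusted p of 0.05. These calls held in 6 or 7 alternatives each and in 0 cases without both arrays of high Xist. With arrays centred on their medians 18 were higher and 0 lower in parietal than in chief arrays, where 28.2% and 7.33% of all genes were. On the deposited scale the list's median difference was 0.05. Bag3, an HSF1 target that links Hsp70 to autophagy, had 7.62, 7.93 and 8.72 in isthmus, 10.68, 10.42 and 10.77 in parietal and 8.55, 9.05 and 8.08 in chief arrays. It was 4.18-fold higher in parietal than in chief arrays (2.06, adjusted p = 0.00435), with an adjusted p of 0.0552 without both arrays of high Xist, and 5.79-fold lower in isthmus than in parietal arrays (-2.53, adjusted p = 0.000953). Hsf1 was not analysed here.

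The NF-kB pathway list had 13 tested genes, of which 3 were called higher and 0 lower in isthmus than in parietal arrays (15.4% and 12.2% of all genes). Of the 3, Relb and Cxcl1 exceeded the array median on the isthmus arrays alone and were tested only through that group, so their calls lend the count no support. In isthmus against chief arrays 0 were called by limma. At an unadjusted p under 0.05, 4 were higher and 0 lower, where 8.28% and 9.11% of all genes were. The 13 genes include Relb and Cxcl1, so this count lends no support either. Bcl3, a nuclear partner of NF-kB, had 10.58, 10.26 and 10.28 in isthmus, 7.86, 6.74 and 7.44 in parietal and 7.96, 9.02 and 9.94 in chief arrays. Bcl3 was 8.15-fold higher in isthmus than in parietal arrays (3.03, adjusted p = 0.00108). It was the only gene of the list called in parietal against chief arrays, where it fell by 1.63 (adjusted p = 0.0403), a call held in 7 of 21 alternatives. Cxcl1, a chemokine that draws neutrophils, had 11.15, 7.62 and 6.98 in isthmus, 4.46, 5.73 and 2.07 in parietal and 4.56, 4.19 and 1.39 in chief arrays. Relb, a subunit of the non-canonical pathway, had 9.27, 9.2 and 7.21 in isthmus, 5.59, 5.79 and 5.18 in parietal and 3.16, 6.43 and 5.79 in chief arrays. For both genes the isthmus arrays were above all others. The sum of leukocyte markers was 49.6 to 247 in isthmus, 63.0 to 97.2 in parietal and 56.5 to 795 in chief arrays.

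Of 15 tested metallothionein, oxidative and growth arrest genes, 2 were called higher and 2 lower in parietal than in chief arrays (10.7% and 13.5% of all genes), and 3 higher and 2 lower in isthmus than in parietal arrays (15.4% and 12.2% of all genes), counts near the background. Mt2, which binds zinc and copper, had 13.75, 13.75 and 13.97 in isthmus, 12.14, 11.41 and 12.03 in parietal and 13.87, 13.75 and 14.09 in chief arrays. It fell by 2.04 in parietal against chief arrays (4.12-fold, adjusted p = 8.19e-06). Nqo1, a quinone reductase, had 13.32, 13.19 and 13.32 in isthmus, 11.47, 11.76 and 11.37 in parietal and 13.04, 13.43 and 12.99 in chief arrays, and fell by 1.62 in parietal against chief arrays (3.07-fold, adjusted p = 2.02e-05). Ddit4, an inhibitor of mTORC1 induced by hypoxia and other stress, ran the other way, with 10.15, 10.77 and 11.02 in isthmus, 13.06, 12.96 and 12.70 in parietal and 11.20, 10.40 and 11.44 in chief arrays. Ddit4 was 3.71-fold higher in parietal than in chief arrays (1.89, adjusted p = 0.000581), and Cdkn1a, a cell cycle inhibitor, was 2.76-fold higher (1.46, adjusted p = 0.000286). In isthmus against chief arrays 1 gene of this list was called higher and 0 lower (0.391% and 1.26% of all genes). It was Txnip, an inhibitor of thioredoxin (1.16, adjusted p = 0.0455), a call held in 7 of 21 alternatives.

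**Figure D4:**
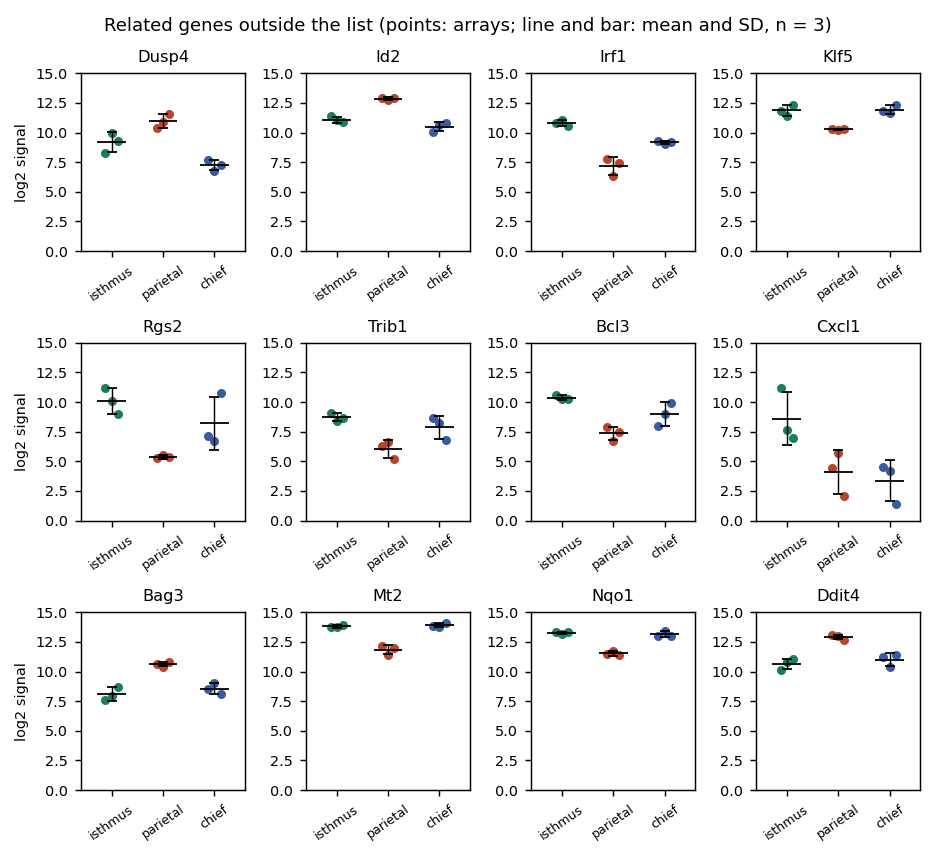
Log2 signal of 12 genes of the related lists on each array (points), with the mean and SD of each group (n = 3), in isthmus, parietal and chief arrays. The parietal points of Dusp4, Id2, Bag3 and Ddit4 lie above all others, and those of Irf1, Klf5, Mt2 and Nqo1 lie below all others.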

How the data were processed

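The authors deposited log2 signals of single probe sets, made with Affymetrix MAS5 per the submitters' processing notes. Not given in the sources used here are the version of MAS5, its log step and its floor. The base of the logarithm was read from the values. Per the labels' protocols, total RNA was labelled with biotin. Groups and replicate numbers came from the sample titles. Per array, the median signal lay at 5.80 to 6.70 on the log2 scale and 1.99% to 3.91% of values were 0, read as a floor.

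The platform annotation named the probe sets. Of 45037, 34945 named 1 gene, 932 several and 9160 none. Genes that exceeded the median of the array on 3 or more arrays entered limma 3.58.1 in R 4.3.3 (lmFit, contrasts.fit, and eBayes with its trend option) with the log2 values unaltered, in 1 fit with 3 group means, 9 arrays and 6 residual degrees of freedom. The two-sided p-values of a comparison were adjusted after Benjamini and Hochberg across all 11006 genes, and all adjusted p-values come from limma. The test was checked on simulated data. A bound, "at least", raises any array of the dimmer group that is below its median to that median. Summed signals are of linear values.

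Members, lists and tests were chosen with earlier results of these data known. Values per array are given for called members, those with the largest differences and the brightest of each role, and for up to 6 called genes of each other list with the largest differences. Lgr5 and Bhlha15 check the labels. Same-numbered arrays of different groups had deviations correlating at -0.0371 to 0.0734, so the numbers were not read as pairs. Quantile normalization, centring, filters, pseudocounts of 16 and 64, a floor, probe set averaging, the model, the replicate block and leaving out arrays were tried. Per the labels, 9 samples were deposited, and the number of arrays limits the precision.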

Additional observations from a re-analysis of the deposited data

How the results depend on the processing

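Each count was recomputed under 21 alternatives. Members called in isthmus against chief arrays were 1 higher with arrays centred on their medians, with log2(signal + 16), with log2(signal + 64) and with values floored at the array median. Lower calls there were 0 with centring, with the mean of all probe sets, with no intensity trend and without both arrays of high Xist, and 3 with the filter on all 9 arrays, with either pseudocount and with the floor. Leaving out 1 array at a time gave 0 to 2 higher and 0 to 1 lower. In parietal against chief arrays, higher calls were 10 with centring and 2 with quantile normalization, either pseudocount, the floor or only the groups compared, and 1 to 2 with 1 array left out. Lower calls there were 7 with centring, 11 without both arrays of high Xist and 13 to 16 with 1 array left out, and the members' median was -0.13 with centring. In isthmus against parietal arrays, lower calls were 2 with quantile normalization, the mean of all probe sets, no intensity trend and without both arrays of high Xist, and 2 to 4 with 1 array left out. With the replicate number as a block, calls higher and lower were 0 and 1 in isthmus against chief, 1 and 16 in parietal against chief and 18 and 4 in isthmus against parietal arrays, and since the numbers do not pair the samples this is only a check.

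Centring turned the parietal minus chief difference of Jund to 0.58, Btg1 to 0.077, Hspa8 to 0.51, Dnaja1 to 0.66, Dnajb1 to 0.59, Hsp90b1 to 0.14, Cct6a to 0.21 and Cct7 to 0.023. It adds 1 constant per array, so it moves all genes alike. Of 3881 gene values recomputed, 3505 kept call and direction or stayed uncalled, the latter whatever their sign. With direction kept, 324 lost the call and 44 gained it. The rest changed sign with a call before or after. Among 90 uncalled differences, 34 changed sign under some alternative. MAS5 signals near the array median are noisy, and no detection calls were used here.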
